A study of Homo sapiens with 21 samples.

Results

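The HA peak lists of Jurkat clones with a truncated RUNX1 were compared with the HA peak lists of clones with a missense RUNX1. The members were chosen by label: 4 lists of the R232fs and Y287X clones, both truncating changes, against 2 lists of the G365R clones, out of 14 peak lists and 21 samples in the series. On chromosomes 1 to 22 and X these 6 lists held 344782 of the series' 791439 peaks. Jurkat is an established human T-cell acute lymphoblastic leukaemia line. The mutant lists came from knock-in lines that are each 1 clone, with 2 clones of each mutant genotype, and the WT lists from cells that the labels call parental. No cells were treated. HA marked the R232fs, Y287X or G365R protein in the mutant clones and wild-type protein in the WT cells, and TY1 marked wild-type protein throughout. All cells, the WT cells included, therefore carried tagged RUNX1. Cells were fixed for 15 min and the fixation was stopped for 5 min before chromatin immunoprecipitation and sequencing. The replicates of a mutant genotype are clones, so the p-values below measure the spread between clones and between libraries made from them.

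RUNX1 is a transcription factor of blood cell development that binds DNA through its Runt domain, together with its partner CBFB. The part of the protein after the Runt domain carries regions for activating and repressing transcription and for binding other regulators. A frameshift or stop codon after the Runt domain removes much of that part and can leave DNA binding in place, whereas a missense change there keeps the length of the protein. RUNX1 mutations of both kinds are known in acute leukaemias. The series compared where the mutant and wild-type proteins sit in the genome.

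The 2 sides also differ in kind of list, before any position is compared. The deposited truncated lists held 77691 and 86433 peaks in R232fs and 51892 and 67594 peaks in Y287X, against 30609 and 30563 peaks in G365R. All lists were therefore reduced to their 30563 strongest peaks by the authors' −log10 p. This kept 35.4% to 58.9% of the truncated lists, against 99.8% of the first and all of the second G365R list. The weakest peak kept had a −log10 p between 9.37 and 16.1 in the truncated lists, against 3.77 and 3.52 in the G365R lists. Fragment pileups at the summit, solved from the authors' fold and p-values, reached 5369 and 142604 in R232fs and 3671 and 4301 in Y287X, against 469 and 473 in G365R and 480 in WT. At equal length, 643 to 1958 peaks of each truncated list had a pileup above 473. The G365R lists have 0 by construction, since 473 is their highest pileup. The TY1 lists of the same cells were split alike. Their highest pileups were 2904 to 17735 in truncated clones, against 406 and 450 in G365R clones and 385 in WT. The value of 17735 was a single peak of R232fs TY1 1, whose next highest pileup was 2451. Only 8.08% of the pileups solved for G365R TY1 1 and 6.84% of those for WT TY1 were near whole numbers. The values of 406 and 385 may therefore be on another scale. The caller's settings, such as its treatment of duplicate reads, are unknown here, and their part in this split was not tested. The total number of reads per library is not part of a peak list. The commonest local background of a list, the nearest measure of depth, was 3.58 to 4.02 fragments in the truncated lists, against 3.34 and 3.22 in the G365R lists. Mutation, list length and pileup range move together between the sides and cannot be told apart by these 6 lists.

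At equal length, the truncated lists were more like each other than like the G365R lists. Windows of 100 bp on each side of the summits were merged into regions, and the Jaccard index, the share of regions in either of 2 lists that both hold, was taken for each pair of lists. It was 0.515 to 0.634 in the 6 pairs of truncated lists, 0.512 between the G365R lists, and 0.290 to 0.447 in the 8 pairs across the sides. Every pair within a side thus shared more regions than any pair across them. The mean within the sides exceeded that across them by 0.1997, with an exact permutation p of 0.0667 (1-sided), the smallest that the 15 arrangements of 6 lists into 4 and 2 allow. This permutation test can therefore not go below 0.05.

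Among the truncated lists the genotype did not order the likeness. The largest index, 0.634, was between R232fs clone 2 and Y287X clone 2, and the next, 0.612, between R232fs clone 1 and Y287X clone 1. The clones of 1 genotype reached 0.557 in R232fs and 0.571 in Y287X. R232fs clone 2 stood farthest from G365R, at 0.333 and 0.290, and Y287X clone 1 stood nearest, at 0.447 and 0.404.

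**Figure D1:**
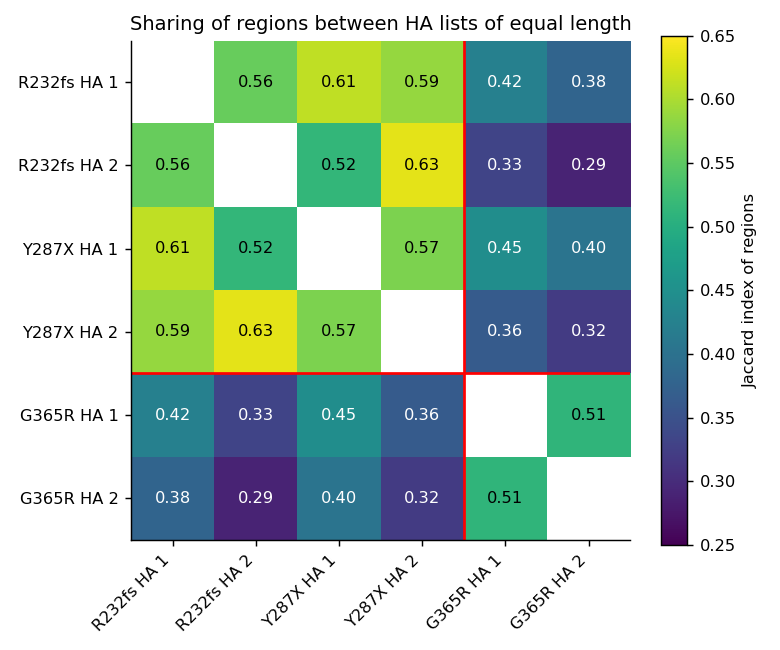
Jaccard index of regions for every pair of the 6 HA lists at equal length, as a coloured grid of lists with lines between the sides. The 6 pairs of truncated lists lie at 0.515 to 0.634, the G365R pair at 0.512, and the 8 pairs across the sides at 0.290 to 0.447.

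The position of a shared summit differed in the same way. Summit distances between 2 lists were taken at the regions that every HA list held. Their median was 14 to 21 bp between truncated lists, 27 bp between the G365R lists, and 27 to 33 bp across the sides. The sides' difference, across minus within, was 10.02 bp (exact permutation p = 0.0667, 2-sided). The G365R pair itself did not lie below the range across the sides, so the difference rests on the truncated pairs.

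Regions held by every list of 1 side and no list of the other were about equally many on both sides. Of 62715 regions, 10421 were in all 6 lists, 3939 in the 4 truncated lists and neither G365R list, and 3820 in both G365R lists and no truncated list. Another 3297 regions were in the 4 truncated lists and a single G365R list. The 2 counts are not held to the same standard, since a truncated-only region has to recur in 4 lists and a G365R-only region in 2. With 2 lists on each side, R232fs against G365R gave 6658 R232fs-only and 5290 G365R-only regions. Y287X against G365R gave 5788 Y287X-only and 4782 G365R-only regions. R232fs against Y287X gave 1122 R232fs-only and 1081 Y287X-only regions. Fewer regions thus separated R232fs from Y287X than separated either of them from G365R. The comparisons with G365R share the G365R lists.

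The TY1 lists of the same clones, which mark wild-type protein, were separated less in the same counts at equal length. The cut fell elsewhere in TY1: the weakest peak kept had a −log10 p of 10.4 to 18.3 in truncated clones, against 16.0 and 15.3 in G365R clones. The G365R HA lists reached down to 3.77 and 3.52. At the same length, 1136 regions were in the 4 TY1 lists of the truncated clones and neither TY1 list of the G365R clones, and 2333 in the opposite class. In TY1, R232fs against G365R gave 2104 R232fs-only and 3123 G365R-only regions, and Y287X against G365R 3538 Y287X-only and 4402 G365R-only regions. R232fs against Y287X gave 626 R232fs-only and 874 Y287X-only regions in TY1. Without length matching the HA counts were 10529 truncated-only and 1868 G365R-only regions, and the TY1 counts 964 truncated-only and 5635 G365R-only regions.

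**Figure D2:**
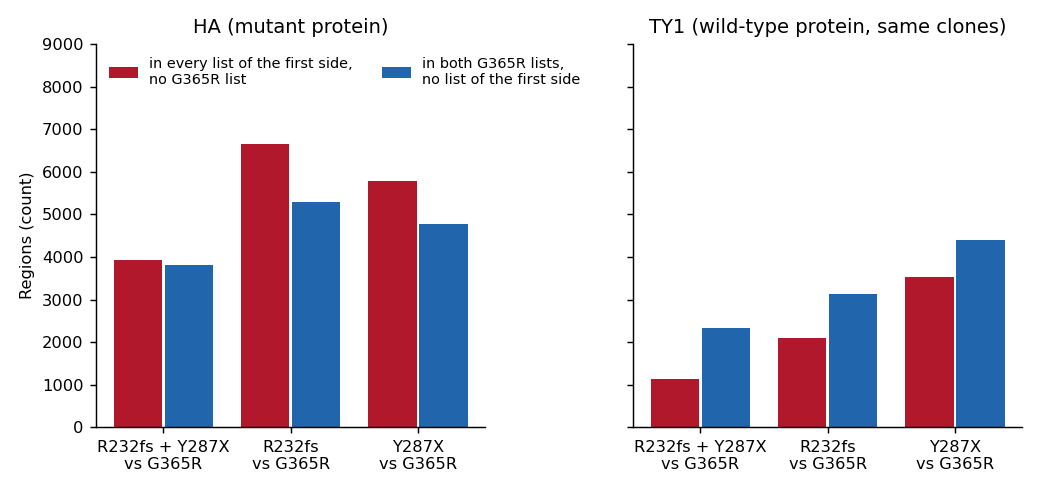
Number of regions in every list of 1 side and no list of the other, by comparison, for HA and for TY1 lists of the same clones at equal length. In HA the truncated and G365R sides have 3939 and 3820 such regions, and in TY1 they have 1136 and 2333.

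Truncated-only HA regions were mostly bound by wild-type protein too. Of the 3939, 58.5% were in all 4 TY1 lists of the truncated clones and 35.8% in both TY1 lists of the G365R clones at equal length. In whole lists 75.7% were in both TY1 lists of the G365R clones, and 84.4% were in the TY1 list of the WT cells. A WT HA summit was there in whole lists in 15.6%. The G365R HA lists are nearly whole at equal length, so their absence is fixed by the choice of these regions. At equal length the WT HA list held 12.1% of them, against 54.7% for the WT TY1 list. HA and TY1 both mark wild-type protein in the WT cells, and their HA and TY1 lists differed at these regions too.

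G365R-only HA regions had another distribution over the other lists. Of the 3820, 0.471% were in all 4 TY1 lists of the truncated clones and 50.2% in both TY1 lists of the G365R clones. The WT HA list held 65.9% of them and the WT TY1 list 55.7%. Absence from the truncated lists was partly a matter of length: in whole lists, 45.3% had a summit in at least 1 truncated HA list, 1.86% had one in all 4, and 65.6% were covered by part of a truncated HA peak. For truncated-only regions, 2.87% were covered by part of a G365R HA peak.

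One-side regions were weaker than those of all 6 lists. The median within-list percentile of strength was 51.0 for truncated-only regions, 45.4 for G365R-only regions and 77.4 for regions of all 6 lists. Median peak width was 602 bp for truncated-only and 351 bp for G365R-only regions. Chromosome 19 held 7.46% of the truncated-only and 1.05% of the G365R-only regions, and chromosome 13 held 1.04% of the truncated-only and 6.86% of the G365R-only regions.

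A few one-side regions were among the strongest peaks of their lists. These are named by hg19 position, because gene names of that build were not at hand. The strongest truncated-only region lay on chromosome 17 at 79399036 to 79399237, with strength percentiles of 99.97 and 99.86 in R232fs and 99.96 and 99.91 in Y287X. It was also in the 4 TY1 lists of the truncated clones, in neither TY1 list of the G365R clones and in neither WT list. Both G365R HA peaks covered part of this region, but their summits were 259 to 286 bp from the truncated ones, in a G365R-only region at 79399296 to 79399522, where the percentiles were 99.44 and 99.09. Chromosome 1 had a pair with summits 452 to 513 bp apart. There the truncated-only region at 24648772 to 24648998 had percentiles of 96.5 to 99.3, and the G365R-only region at 24648285 to 24648520 had 99.26 and 98.68. Unlike the region on chromosome 17, the truncated-only region on chromosome 1 was also in WT HA at 98.2, in WT TY1 at 94.1 and in 1 TY1 list of the G365R clones at 96.2. On chromosome 5, the truncated-only regions at 137090123 to 137090360 and at 11451 to 11681 were likewise covered by both G365R HA peaks, with summits 380 to 434 bp and 317 to 461 bp away. In 4 of the 5 strongest truncated-only regions the G365R lists thus had a peak at the place with its summit elsewhere. Over all one-side regions, part of a G365R HA peak covered 2.64% of the truncated-only regions at equal length. Part of a truncated HA peak covered 15.7% of the G365R-only regions. Neighbouring one-side regions of both kinds were few. Within 1 kb of a region of the other kind lay 84 of 3939 truncated-only regions and 86 of 3820 G365R-only regions.

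The other strong one-side regions stood farther from summits of the other side, with 1 exception. The truncated-only region on chromosome 1 at 91852836 to 91853044 had percentiles of 99.45 and 98.27 in R232fs and 98.43 and 97.98 in Y287X. No G365R HA peak covered it in whole lists. It was in the 4 TY1 lists of the truncated clones, at percentiles of 85.3 to 91.8, and in no TY1 list of the G365R clones and no WT list. On chromosome 21, the G365R-only region at 36164566 to 36164769 had percentiles of 99.94 and 99.37, the strongest of its kind. RUNX1 itself, the gene that was tagged, is on chromosome 21, and whether this region lies in it, or is touched by the knock-in, was not tested for want of an hg19 annotation. The region was in both TY1 lists of the G365R clones, at 99.90 and 99.72, and in the WT HA list, at 93.98. No HA or TY1 list of a truncated clone had it at equal length, no truncated HA peak covered it in whole lists, and the WT TY1 list did not hold it. On chromosome 1 at 199010749 to 199010952 the G365R percentiles were 99.12 and 98.81, and the WT HA and TY1 lists held that region at 99.48 and 97.86. Chromosome 17 at 14104513 to 14104741 had G365R percentiles of 99.15 and 98.78 and WT percentiles of 99.70 in HA and 99.43 in TY1. It is the exception: 2 truncated HA peaks covered it in whole lists, and the nearest truncated summit was 237 bp away. At both of these regions 1 of the 4 TY1 lists of the truncated clones, that of R232fs clone 1, also had a summit. Most of these strong one-side regions were thus in HA and TY1 lists of the same clones.

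The 10421 regions of all 6 lists were then compared by strength. The authors' fold enrichment was ranked within each list over these regions and turned into normal scores, in which 1 unit is 1 SD of a list, and limma was fitted with the 3 genotypes as groups. A percentile below is a list's rank on that scale. For the 6 HA lists it is taken over all 10421 regions. TY1 and WT lists were ranked over the shared regions that each held, 9465 in WT HA and 9978 to 10194 in TY1, so their medians cover fewer regions. Of the 10421 regions, 840 (8.06%) passed an adjusted p of 0.05: 432 (4.15%) were higher and 408 (3.92%) lower in the truncated lists. Ranking the authors' −log10 p in place of the fold gave 2087 higher and 1653 lower, and ranking pileups gave 2309 higher and 1774 lower. The differences of called regions ran from 0.48 to 2.26 higher and from 0.54 to 1.94 lower, in size. The scores of the 4 truncated and 2 G365R lists did not overlap at 4106 regions (39.4%). Correlations of scores across regions were 0.835 to 0.901 between truncated lists, 0.908 between the G365R lists and 0.703 to 0.845 across the sides, given as a description of regions that share libraries.

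Against the same G365R lists, limma called 741 regions (7.11%) for R232fs, 394 higher (3.78%) and 347 lower (3.33%). It called 15 regions (0.144%) for Y287X, 9 higher (0.0864%) and 6 lower (0.0576%). The sizes were nearer to each other than these counts: among the 432 higher regions the median difference from G365R was 1.16 for R232fs and 0.94 for Y287X, and among the 408 lower regions −1.18 for R232fs and −0.995 for Y287X. R232fs against Y287X gave 0 calls by limma, with 692 regions at an unadjusted p under 0.05. Which truncated genotype had more calls depended on 1 list. Without R232fs HA 2 there were 1 higher and 0 lower for R232fs (limma, 2256 at an unadjusted p under 0.05) and 5 higher and 2 lower for Y287X. With pileup ranks the counts were nearer, 1934 higher and 1527 lower for R232fs and 1796 higher and 1430 lower for Y287X.

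The number of calls depended strongly on single libraries. Without G365R HA 1 limma called 7 regions higher and 0 lower (1853 at an unadjusted p under 0.05), and without G365R HA 2, 12 higher and 0 lower (2285 at an unadjusted p under 0.05). A side left with a single list is assumed there to vary like the others. Without R232fs HA 2 the counts were 111 higher and 107 lower, without Y287X HA 2, 81 higher and 91 lower, without Y287X HA 1, 282 higher and 327 lower, and without R232fs HA 1, 664 higher and 784 lower.

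**Figure D3:**
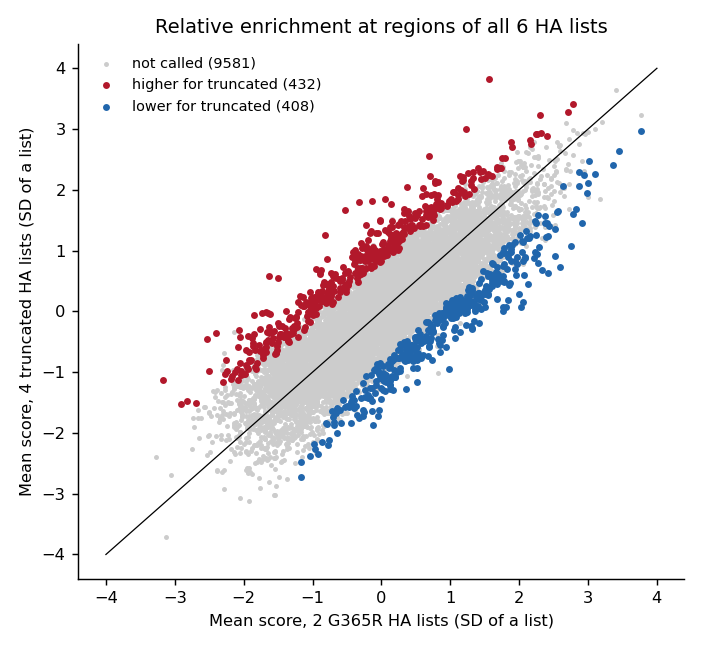
Mean normal score of the fold enrichment in the truncated lists against that in the G365R lists at the 10421 regions of all 6 lists, each point 1 region. The 432 regions called higher and the 408 called lower by limma are coloured and lie off the diagonal, up to 2.26 units above and 1.94 below.

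The wild-type protein was then read at the same called regions. They were chosen for a large HA difference, so a smaller TY1 difference and a tag difference in the HA direction follow in part from that choice, and the values below are a description. At the 432 higher regions the median percentile was 77.3 and 82.6 in R232fs HA and 70.8 and 74.2 in Y287X HA, against 35.0 and 35.7 in G365R HA. In TY1 of the same clones the medians were 58.9 and 69.0 in R232fs and 59.0 and 66.1 in Y287X, against 48.1 and 47.7 in G365R. The WT cells stood at 41.1 in HA and 48.9 in TY1, over the 390 and 422 regions that these lists held. The WT HA list, which marks wild-type protein, was thus nearer to G365R HA than to any truncated list.

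The lower regions were the mirror of this. Their median percentile was 42.7 and 33.5 in R232fs HA and 50.9 and 41.3 in Y287X HA, against 82.1 and 81.4 in G365R HA. In TY1 it was 59.3 and 42.9 in R232fs and 63.1 and 52.5 in Y287X, against 73.3 and 72.5 in G365R. WT stood at 79.4 in HA and 74.3 in TY1.

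The same contrast was fitted to the TY1 lists at the 9477 regions present in all 12 HA and TY1 lists of the mutant clones. There limma called 59 regions (0.623%) in TY1, 41 higher (0.433%) and 18 lower (0.19%). With all 12 lists in 1 fit TY1 gave 282 higher and 236 lower. In HA alone limma called 847 (8.94%), 440 higher (4.64%) and 407 lower (4.29%). Of the 432 higher HA regions, 413 were in the TY1 comparison, and 321 of these had a positive TY1 difference (median 0.36, against 1.04 in HA). Of the 408 lower regions, 368 were in the TY1 comparison, and 326 had a negative one (median −0.55, against −1.08 in HA). These are 77.7% and 88.6%, and over all shared regions 66.4% had the same sign in both tags, which share their clones. TY1 called 16 of the higher and 10 of the lower regions in the same direction. The difference between the tags was tested in 1 fit with clone as a term, as HA minus TY1 in truncated clones against HA minus TY1 in G365R clones. It called 2345 of 9477 regions (24.7%), 1168 higher (12.3%) and 1177 lower (12.4%). It called in the direction of the HA difference 254 of the 413 higher and 184 of the 368 lower regions. Over all shared regions that share was 21.5%.

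In HA, peaks at shared regions were wider on the truncated side. Over all shared regions the median width was 761 bp in the truncated lists and 494 bp in G365R, at the higher regions 853.5 bp in the truncated lists and 450 bp in G365R, and at the lower regions 602 bp in the truncated lists and 593 bp in G365R. In TY1, at the shared regions that each list held, the median width overlapped between the sides. It was 656 to 903 bp in truncated clones, against 734 and 694 bp in G365R clones. The part of width and pileup in the fold ranks was not tested.

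The 10 regions with the largest higher difference had the following values. On chromosome 2 at 11093919 to 11094208, the percentile was 99.995 and 99.986 in R232fs HA and 99.995 in both Y287X HA lists, against 93.7 and 94.6 in G365R HA (difference 2.26 ± 0.12 SE, limma adjusted p = 1.47e-05). R232fs HA 1 and both Y287X HA lists held the top rank of the 10421 regions, and R232fs HA 2 stood 1 rank below. A score cannot rise above that rank. The small SE and p thus do not measure the spread between clones alone, and TY1 of the truncated clones stood near its top rank too. Wild-type protein differed there as much: TY1 stood at 99.95 to 99.995 in truncated clones, against 79.4 and 78.97 in G365R clones, and the WT cells at 82.7 in HA and 68.7 in TY1. The TY1 difference was 2.87 (limma adjusted p = 1.94e-05), larger than the HA difference by 0.59 (HA minus TY1 −0.59, limma adjusted p = 0.0117). This region separates the truncated clones from the others in both tags.

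Regions on chromosomes 3 and 14 behaved otherwise. At 149939105 to 149939338 on chromosome 3 the HA percentile was 72.8 and 86.7 in R232fs and 66.3 and 53.5 in Y287X, against 9.37 and 4.58 in G365R (2.06 ± 0.25 SE, limma adjusted p = 0.00623). TY1 overlapped between the sides there, at 26.5 to 56.2 in truncated clones, against 49.5 and 34.6 in G365R clones, and the tag difference was 2.07 (limma adjusted p = 0.000344). WT HA stood at 5.43, next to G365R, and WT TY1 at 29.7. At 100751961 to 100752252 on chromosome 14 the HA percentile was 27.7 and 42.4 in R232fs and 29.8 and 30.8 in Y287X, against 0.369 and 0.883 in G365R (2.07 ± 0.25 SE, limma adjusted p = 0.00623). TY1 stood at 14.2 to 28.5 in truncated clones, against 9.52 and 8.85 in G365R clones. This is a weak region in every list, at the bottom of the G365R ranking, and the WT HA list did not hold it.

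Other higher regions combined a tag difference with a smaller TY1 difference. At 58162661 to 58162960 on chromosome 19 the HA percentile was 92.5 and 99.02 in R232fs and 93.5 and 91.5 in Y287X, against 23.98 and 36.2 in G365R (2.197 ± 0.27 SE, limma adjusted p = 0.00693). TY1 stood at 79.98 to 95.2 in truncated clones, against 48.5 and 71.2 in G365R clones (0.96, limma adjusted p = 0.0935, not past the threshold). At 30909247 to 30909579 on chromosome 13 the HA percentile was 98.1 in both R232fs lists and 91.6 and 95.6 in Y287X, against 43.3 and 46.0 in G365R (1.95 ± 0.21 SE, limma adjusted p = 0.00432). TY1 there was 78.8 to 92.6 in truncated clones, against 64.3 and 66.5 in G365R clones (0.75, limma adjusted p = 0.0935, not past the threshold). The remaining 5 lay on chromosomes 3, 8, 10, 12 and 16 and differed by 2.04 to 2.21. Among them, the difference on chromosome 10 at 130262685 to 130262940 turned to −0.22 when pileups were ranked in place of folds.

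Of the 10 regions with the largest lower difference, all but the one on chromosome 1 at 203619325 stood above the median of the G365R and WT HA lists. On chromosome 15 at 92203323 to 92203635 the HA percentile was 56.6 and 33.2 in R232fs and 77.5 and 43.1 in Y287X, against 97.3 and 98.3 in G365R (−1.94 ± 0.30 SE, limma adjusted p = 0.0139). TY1 stood at 63.9 to 94.1 in truncated clones, against 97.8 and 98.6 in G365R clones, and WT at 98.4 in HA and 98.3 in TY1. On chromosome 21 at 27520399 to 27520717 the HA percentile was 50.3 and 53.8 in R232fs and 70.2 and 49.5 in Y287X, against 98.0 and 98.1 in G365R (−1.91 ± 0.23 SE, limma adjusted p = 0.00623). WT HA was 92.5 there. HA stood below the G365R level in all 4 truncated lists at both regions, which follows from how the named regions were chosen.

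Within the truncated lists, the clones numbered 2 were often the lower ones. On chromosome 3 at 55698482 to 55698864 the HA percentile was 31.3 and 4.99 in R232fs and 39.7 and 7.87 in Y287X, against 82.9 and 84.8 in G365R (−1.94 ± 0.37 SE, limma adjusted p = 0.0210). TY1 of the same clones ran alike, at 65.9 and 14.4 in R232fs and 59.9 and 13.5 in Y287X, against 76.7 and 60.0 in G365R. On chromosome 1 at 203619325 to 203619584 the HA percentile was 0.888 and 2.04 in R232fs and 10.7 and 3.44 in Y287X, against 47.7 and 43.0 in G365R (−1.75 ± 0.27 SE, limma adjusted p = 0.0144). TY1 ran the same way without passing the threshold (−1.37, limma adjusted p = 0.0543). It stood at 1.69 to 5.54 in truncated clones, against 29.9 and 31.6 in G365R clones, and WT stood at 25.2 in HA and 13.5 in TY1. The remaining 6 lower regions lay on chromosomes 1, 2, 4 and 6 and differed by −1.70 to −1.87, and WT HA stood at percentiles of 91.7 to 99.7 in them.

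**Figure D4:**
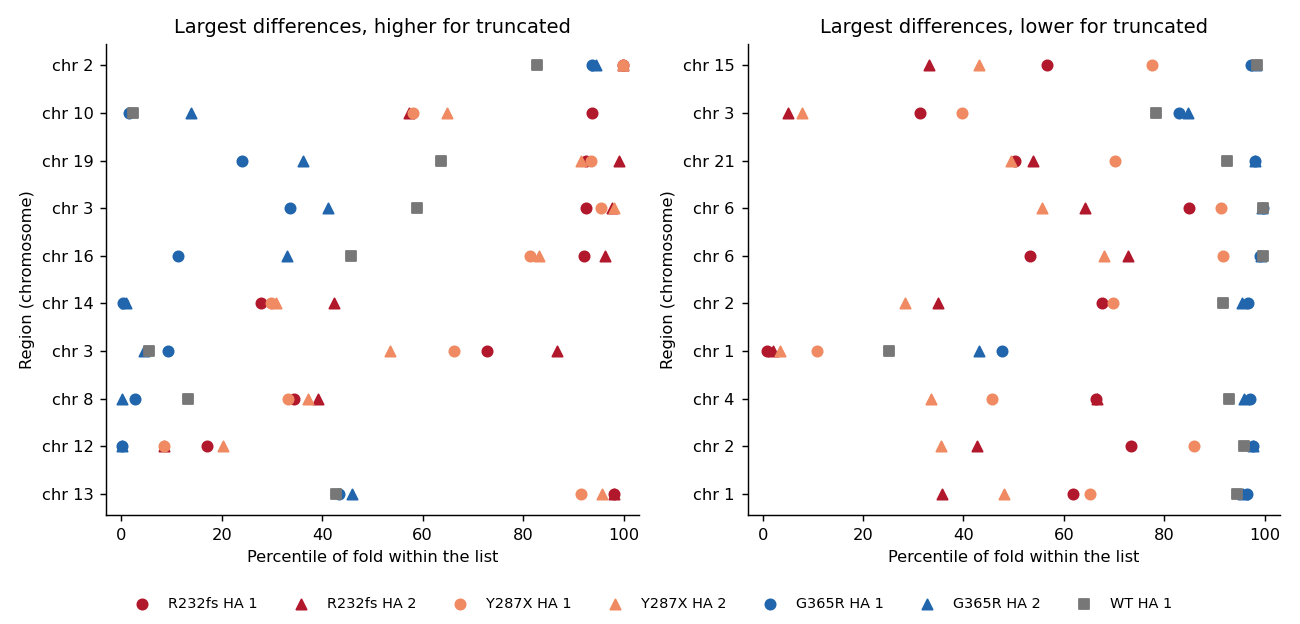
Percentile of the fold enrichment within each list at the 20 named shared regions, for the 4 truncated HA lists, the 2 G365R HA lists and the WT HA list. TY1 lists are not drawn. The truncated and G365R points do not overlap at any of the 20 regions, because the regions were chosen among those without overlap.

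The sides also differed in where along the genome their strongest peaks lay. Chromosome 13 held 2.27% and 2.14% of the peaks in R232fs and 2.41% and 2.17% in Y287X, against 4.01% and 4.53% in G365R (exact permutation p = 0.0667). Chromosome 19 ran the other way, with 4.69% and 5.60% in R232fs and 4.27% and 5.07% in Y287X, against 3.03% and 2.72% in G365R (exact permutation p = 0.0667). WT HA was close to G365R, with 4.57% on chromosome 13 and 2.59% on chromosome 19. The groups did not overlap for either chromosome in HA. Chromosomes 13 and 19 had the 2 largest differences in share, and 16 of the 23 chromosomes reached that same smallest p.

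TY1 gave the same order on chromosome 13 and not on chromosome 19. On chromosome 13 the TY1 share was 2.05% to 2.50% in truncated clones, against 3.03% and 3.49% in G365R clones and 3.25% in WT. On chromosome 19 it was 4.07% to 5.63% in truncated clones, against 4.44% and 3.66% in G365R clones and 3.99% in WT, and the sides overlapped.

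The local background of the peaks moved with the differences on both chromosomes. At shared regions, the background on chromosome 13 relative to the other chromosomes was 0.407 to 0.474 in the truncated HA lists, against 0.762 and 0.820 in the G365R HA lists and 0.904 in WT HA. In TY1 it was 0.409 to 0.468 in truncated clones, against 0.764 and 0.800 in G365R clones and 0.865 in WT. The G365R value was 1.82 times the truncated value on chromosome 13, and the next largest of the ratios above 1 was 1.26, on chromosome 4. On chromosome 19 the relative background was 2.82 to 3.18 in the truncated HA lists, against 2.45 and 2.10 in G365R HA and 2.09 in WT HA, and 2.70 to 3.29 in TY1 of truncated clones, against 2.35 and 2.08 in TY1 of G365R clones. There the truncated value was 1.33 times the G365R value. This background was taken at regions common to all 6 HA lists. Its part in the counts of either chromosome was not tested. Without chromosome 13 there were 3898 truncated-only and 3558 G365R-only regions, and limma called 418 shared regions higher and 389 lower. Of its own 267 shared regions, 25 (9.36%) were called.

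Counted in bins of 5 Mb, 235 of 567 bins (41.4%) differed by limma on log2(peaks + 1), with 108 higher (19%) and 127 lower (22.4%) in the truncated lists. On chromosome 13, 15 of 19 bins were lower and 0 higher. The largest difference was at 105 to 110 Mb of chromosome 13, with 12, 11, 14 and 9 peaks in the truncated lists, against 44 and 72 in G365R (−2.21 ± 0.25 SE, limma adjusted p = 0.00135). TY1 had 15, 14, 18 and 7 peaks there in truncated clones, against 35 and 56 in G365R clones, and WT had 69 in HA and 42 in TY1. Chromosome 19 had 10 of 12 bins higher, chromosome 17 had 10 of 17 and chromosome 22 had 6 of 8. At 10 to 15 Mb of chromosome 19 the truncated lists had 154, 196, 151 and 178 peaks, against 91 and 72 in G365R (1.05 ± 0.14 SE, limma adjusted p = 0.00198). The largest higher difference was at 85 to 90 Mb of chromosome 7, with 13, 13, 11 and 12 peaks in the truncated lists, against 4 and 4 in G365R (1.40 ± 0.17 SE, limma adjusted p = 0.00160). TY1 had 10 to 15 peaks there in truncated clones, against 12 in each G365R clone. Without G365R HA 2, limma called 0 bins higher and 1 lower (179 at an unadjusted p under 0.05), and without G365R HA 1, 55 higher and 37 lower. Without Y287X HA 2 it called 79 higher and 79 lower.

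**Figure D5:**
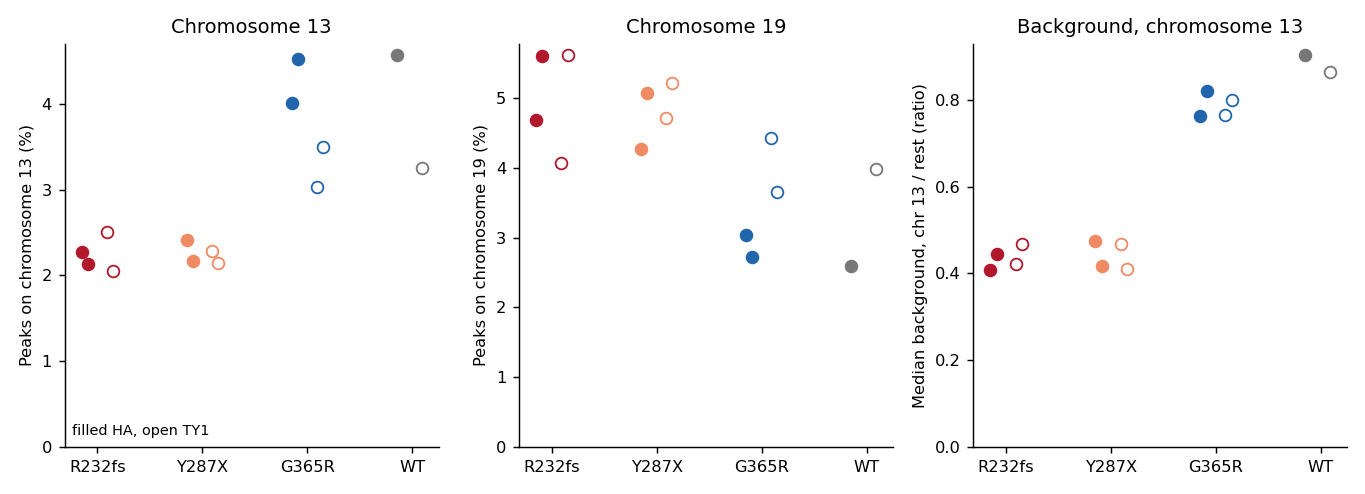
Share of the 30563 strongest peaks on chromosome 13 and on chromosome 19 in each HA and TY1 list. The last panel gives the local background at shared regions of chromosome 13 relative to the other chromosomes. On chromosome 13 the truncated HA lists have 2.14% to 2.41% of their peaks, against 4.01% and 4.53% in G365R HA. Their relative background is 0.407 to 0.474, against 0.762 and 0.820 in G365R HA.

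Peaks of the truncated HA lists were wider than those of the G365R HA lists and stood less often in close company. At equal length the median width was 636 and 712 bp in R232fs HA and 551 and 665 bp in Y287X HA. Against these stood 391 and 385 bp in G365R HA (exact permutation p = 0.0667) and 423 bp in WT HA. In TY1 the sides overlapped, at 527 to 762 bp in truncated clones, against 580 and 551 bp in G365R clones and 562 bp in WT. The HA difference in median width was 253 bp at equal length and 47.5 bp in whole lists. The covered length was 19.3 to 24.9 Mb in the truncated lists, against 13.9 and 13.8 Mb in G365R. A next summit within 2 kb was found for 5.48% and 4.81% of the peaks in R232fs and for 5.52% and 5.45% in Y287X, against 11.5% and 12.2% in G365R (exact permutation p = 0.0667). WT HA had 9.97%, near G365R, and the TY1 lists of the G365R clones had 5.67% and 5.78%, near the truncated lists. In whole lists the sign of this difference turned, with 1.08 percentage points more in the truncated lists, so it holds at equal length only.

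The truncated HA lists lay slightly nearer to chromosome ends and to the wild-type lists of their own clones. Within 5 Mb of the first or last peak of a chromosome lay 14.4% and 16.3% of the HA peaks in R232fs and 13.9% and 14.7% in Y287X. Against these stood 11.97% and 10.8% in G365R HA (exact permutation p = 0.0667) and 10.97% in WT HA. In TY1 the sides overlapped, at 13.1% to 16.3% in truncated clones, against 14.3% and 12.6% in G365R clones and 13.4% in WT. The HA difference was 3.47 percentage points at equal length and 1.13 in whole lists. Of the merged regions that an HA list held, those with a summit of the same clone's TY1 list were 74.4% and 82.1% in R232fs. They were 79.0% and 84.3% in Y287X, against 70.7% and 68.8% in G365R (exact permutation p = 0.0667). The difference was 10.2 percentage points, and among the strongest 15000 peaks 3.10 (exact permutation p = 0.333). Without length matching it was −24.4 percentage points, in favour of G365R, whose HA lists are shorter than its TY1 lists.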

How the data were processed

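RUNX1 binding was measured by ChIP-seq in Jurkat knock-in clones. The submitters' processing notes name hg19, MACS2 2.2.7.1, Bowtie2 2.2.9 and CASAVA 1.8. The sources used here do not give the caller's settings or controls. The authors deposited 1 narrowPeak list per library, not pooled, with a fold enrichment (linear ratio), a −log10 p, a −log10 q and a score for each peak. These are the authors' peak values, used only as ranks, filters and descriptions. Peaks outside chromosomes 1 to 22 and X were left out, and no list of artefact-prone regions was applied. Depth is unknown.

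Lists were cut to the 30563 strongest peaks by −log10 p. Summit windows (100 bp each side) overlapping by at least 1 bp were merged into regions. Pileup and background were solved from fold and p under a Poisson model with a pseudocount of 1. At least 99.99% of the HA pileups came out within 0.05 of a whole number, against 8.08% in G365R TY1 1 and 6.84% in WT TY1. List summaries were compared by exact permutation over 15 arrangements (2-sided unless stated). Scores and bin counts (5 Mb, mean of at least 5 peaks) were fitted with limma 3.58.1 (trend, Benjamini-Hochberg over all features, 3 residual degrees of freedom). On scores simulated for the shared regions the fit found 0% of 50 regions shifted by 0.5, 6% of 50 regions shifted by 1, 44% of those shifted by 1.5 and 66% of those shifted by 2.

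HA and TY1 lists were tied to a clone by the clone names given to the lists, and their deviations from group means correlated (r = 0.775 in R232fs, 0.717 in Y287X, 0.533 in G365R). Named shared regions are the 10 largest called differences each way among those whose sides do not overlap, named one-side regions the 5 with the highest median strength per kind, and named bins the 5 largest called differences each way. The members and lists were chosen with earlier results of these data known. Python 3.11.15, numpy 2.4.6, pandas 2.3.3, scipy 1.17.1, R 4.3.3 and matplotlib 3.10.9 were used. Alternatives are listed in the closing section.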

Additional observations from a re-analysis of the deposited data

Results flagged for a closer look

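The highest pileup of R232fs HA 2, 142604, stood apart from the highest pileups of the other truncated HA lists (5369, 3671 and 4301). It belongs to a single peak on chromosome 17 at 56402071 to 56402302, with a fold of 1.14 over a background of 125023, and no other of the 14 lists has a summit there. The share of peaks with a next summit within 2 kb, 4.81% in R232fs HA 2, stood below the other truncated HA lists (5.48%, 5.52% and 5.45%). At the region on chromosome 2 at 11093919, R232fs HA 2 stood at a percentile of 99.986 beside 99.995 in the other truncated HA lists, a difference of 1 rank. In all, 3 of 50 groups of values had such a sample apart, and chance gives about 1 in 20. R232fs HA 2 was the library that stood apart each time.

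The difference of HA minus TY1 between truncated and G365R clones was itself past the threshold at 2345 of 9477 regions (limma with clone as a term), 1168 higher and 1177 lower.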

How the results depend on the processing

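Every alternative kept the direction of the Jaccard and summit offset differences. Truncated-only and G365R-only regions numbered 10529 and 1868 in whole lists, 2335 and 2646 among the strongest 15000, and 6672 and 5293 with R232fs alone. Leaving out 1 list gave 4276 to 6296 truncated-only and 3982 to 10301 G365R-only regions. Turned in sign were the median distance to the next summit, truncated minus G365R (−15.6 kb in whole lists, −5.05 kb among the strongest 15000), the share within 2 kb (1.08 percentage points in whole lists) and the share in the clone's TY1 list (−24.4 in whole lists). Shared regions called higher and lower were 2087 and 1653 with −log10 p ranks, 2309 and 1774 with pileup ranks, 423 and 703 with centred log2 fold, and 275 and 264 without high-pileup regions. With 1 list left out they ran from 7 to 664 and from 0 to 784. TY1 gave 282 and 236 with all 12 lists in 1 fit, an alternative chosen after seeing the data, as was leaving out chromosome 13. Bins called higher and lower were 260 and 195 at 1 Mb and 549 and 3 in whole lists, and 0 to 115 and 1 to 134 with 1 list left out. For these shifts the cause was not tested, except that whole lists differ in length by construction.

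Lists of the same number deviated together weakly between R232fs and Y287X (correlation 0.149) and not between either and G365R (0.0037 and 0.0057), so the numbers were not taken to pair the HA lists across genotypes, and a replicate block on the number gave 574 higher and 579 lower. With clone as the replicate block, HA minus TY1 gave 1168 higher and 1177 lower. That fit tests the difference between the tags, not the HA difference, and its values are counted below by the same rule. It gave −0.59 at the region on chromosome 2 at 11093919, where TY1 differed more than HA. Pileup ranks turned chromosome 10 at 130262685 to −0.22. Named regions that a setting did not hold have no value there. Among the strongest 15000 peaks only 2 of the 20 had one, and with all 14 lists in 1 fit 15 did. Of 350 values for the 20 named regions, 303 kept their direction and call, 45 kept the direction only, 35 of these without a G365R list, and 2 turned.

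The 2 clones per genotype, the 15 arrangements and peak values without read totals limit what these lists can show.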
